A study of Mus musculus with 36 samples.

Results

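The ionotropic glutamate receptor subunits described here are 10 genes of the 18845 in the deposited table, taken by their symbols: Gria1, Gria2, Gria3 and Gria4, which encode AMPA receptor subunits, and Grin1, Grin2a, Grin2b, Grin2c, Grin2d and Grin3b, which encode NMDA receptor subunits. All were found as 1 row each. The study sequenced total RNA purified through an HA-tagged ribosomal protein (RiboTag) from mouse tissue, with 12 groups of 3 libraries each and 36 libraries in all. Spinal cord came from ChAT-Cre;Ribo-tag mice in the embryo (E15.5), at birth (P0.5), in pups (P10) and in adults of 2 months. Synapse-enriched diaphragm muscle came at the same ages from ChAT-Cre;Ribo-tag mice (Cre-positive) and from Ribo-tag mice without Cre (Cre-negative). All groups carry the tag allele, and ChAT-Cre turns it on in cells that express choline acetyltransferase or did so earlier, so cholinergic interneurons and other cholinergic cells of the cord are tagged along with motor neurons. Cre-negative diaphragm shows what the purification recovers without Cre. Spinal cord has no such control among the samples analysed here, so the background of the purification in that tissue is not known. Nothing in the labels ties replicates to separate animals, and p-values therefore cover the spread among libraries, which may be technical.

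Both receptors are ion channels assembled from 4 subunits and gated by glutamate, for NMDA receptors with glycine as a second agonist. AMPA receptors carry most fast excitation, and GluA2, the product of Gria2, makes them nearly impermeable to calcium once its RNA has been edited. NMDA receptors need GluN1, the product of Grin1, joined with glutamate-binding GluN2 subunits (Grin2a to Grin2d) or with glycine-binding GluN3 subunits such as GluN3B, the product of Grin3b. GluN3 subunits lower the calcium permeability and the magnesium block of the receptor, and Grin3b is known in rodents for its expression in motor neurons.

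The CPM steps put the depth of spinal cord libraries at 63.7 to 71.8 M reads (M, 1000000). Cre-positive diaphragm had 86 to 107 M reads and Cre-negative diaphragm 68.2 to 93.7 M. Genes without a read made up 8.3 to 12.9% of the table in spinal cord libraries. They made up 15.4 to 33.6% in Cre-positive and 23 to 46.2% in Cre-negative diaphragm, so a gene at 0 was more common there despite the depth. Each group held 1 library whose values over all genes were nearly a weighted mix of those of its 2 fellows, with a root mean square distance of 0.104 to 0.145 on the log2(CPM + 1) scale. The other 2 libraries of a group lay 0.213 to 0.257 apart in spinal cord and 0.687 to 1.45 apart in diaphragm. The library in between, called intermediate below, was replicate 3 in 9 of 12 groups. The weights were uneven in some groups. In P0.5 Cre-positive diaphragm, replicate 1 was close to 0.034 of replicate 2 plus 0.965 of replicate 3, and so nearly a copy of replicate 3. SDs and p-values over 3 libraries count the intermediate library in full, although it adds little independent information. In spinal cord the cholinergic genes were measured at high levels at all ages: Slc18a3, the vesicular acetylcholine transporter, averaged 233, 254, 152 and 169.7 CPM over the 4 ages in order, and Chat, the enzyme that makes acetylcholine, averaged 15.9, 11.5, 64.9 and 64.6 CPM. The summed level of 6 oligodendrocyte markers moved with age too. It was 82.7 to 110 CPM at E15.5, 866 to 941 CPM at P0.5, 15600 to 21100 CPM at P10 and 2440 to 4110 CPM in adults. The summed level of 6 astrocyte and radial glia markers was 753 to 937, 811 to 865, 553 to 626 and 171 to 223 CPM at these ages. The summed level of 6 glutamatergic interneuron markers was 35.9 to 41, 43.4 to 44.5, 21.4 to 24.3 and 13.5 to 18 CPM, and that of 5 GABA and glycine interneuron markers was 26.3 to 36.2, 51.5 to 52.5, 45.8 to 53.6 and 29.6 to 41.3 CPM. Skeletal muscle markers summed to 482 to 947, 719 to 3320, 33.4 to 256 and 1.6 to 4.38 CPM in spinal cord. Markers of other cells than cholinergic neurons thus moved with age in the purified spinal cord RNA, and their part in the changes below was not tested. In bulk samples fewer cells of a type and less RNA per cell cannot be told apart.

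The first question was how each subunit changed over development of the cord. Grin3b was the subunit with the largest difference between adult and E15.5 spinal cord: it averaged 44.8 ± 1.88 CPM in adults and 0.631 ± 0.135 CPM at E15.5 (SD, n = 3 each), a 71-fold higher mean. Gria3 and Grin2c also rose between these ages, while Gria1, Gria2, Grin1, Grin2b and Grin2d fell to means 1.59 to 4.23-fold lower. Gria4 and Grin2a fell by smaller amounts, and their direction turned with the scaling of the libraries. Differences below are between group means of log2(CPM + 1), so they understate the change of genes near 0 CPM. They come from limma fitted across the 13373 genes with at least 1 CPM in at least 3 of the 12 spinal cord libraries, with Benjamini-Hochberg adjustment over all of them and a threshold of 0.05. All 10 subunits passed this filter, Grin2c and Grin3b through their 6 libraries from P10 and adults alone and Grin2a through 9 of 12. Grin2c and Grin3b thus had to be higher at some late age than at the early ages.

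Most genes passed the test at every step of age, so the count of subunits has to be read against that background. At P0.5, against E15.5, 3 subunits rose, 4 fell and 3 did not pass, when 72.3% of all genes tested were called, 27.9% upward and 44.4% downward. At P10, against P0.5, 5 rose and 5 fell, with 78.7% of all genes called, 35.2% upward and 43.5% downward. In adults, against P10, 1 rose, 8 fell and 1 did not pass, with 67.9% called, 23.6% upward and 44.3% downward. In adults, against E15.5, 3 rose and 7 fell, with 84.4% called, 26.3% upward and 58.1% downward. The median difference of the 10 subunits was -0.06, -0.10, -0.44 and -0.46 in these 4 comparisons, where that of all genes tested was -0.13, -0.08, -0.16 and -0.38. All genes together thus shifted downward on the CPM scale, and the difference of a subunit is read relative to that shift. Of the genes called in adults against E15.5, 31.1% were higher in CPM, and 50.7%, 50.1% and 49.6% under size factors, quantile scaling and edgeR. These shares were 34.7% in CPM and 52.7%, 53.4% and 50.8% in adults against P10, and 38.6% in CPM and 50.5%, 47.8% and 49.6% at P0.5 against E15.5.

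Among the AMPA receptor subunits, Gria1 (chr11:57011571-57330244 on GRCm38.p6, the build of all positions here), which encodes GluA1, was lower at each later age. Its levels were 27.2, 28.5 and 27.7 CPM in the 3 libraries at E15.5, 23.7, 22.9 and 23.2 CPM at P0.5, 17.6, 16.9 and 17.5 CPM at P10, and 9.7, 7.52 and 8.53 CPM in adults. No library of one age reached into the range of another age. Gria1 fell in each step, by 0.25 (SE 0.0754, adjusted p = 0.0085) at P0.5 against E15.5, by 0.40 (adjusted p = 0.00015) at P10 against P0.5 and by 0.94 (adjusted p = 3.6e-08) in adults against P10. The call at P0.5 was lost under size-factor scaling, in edgeR and without the intermediate libraries, where the adjusted p was 0.12. Between adults and E15.5 the log2 difference was -1.59 (adjusted p = 1.3e-11), a 3.24-fold lower mean in adults.

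Gria2 (chr3:80681450-80804227), which encodes the subunit that sets calcium permeability, was lower at once after E15.5. It was measured at 39.5, 41.3 and 40.3 CPM at E15.5, 18.8, 18.7 and 18.9 CPM at P0.5, 23.4, 20.6 and 21.2 CPM at P10 and 15.1, 13.1 and 13 CPM in adults. The E15.5 libraries stood far above all others, and the adult ones lay lowest. Gria2 fell by 1.06 at P0.5 against E15.5 (SE 0.0706, adjusted p = 4.1e-09) and by 0.63 in adults against P10 (adjusted p = 1.5e-06). Its difference between P10 and P0.5 was 0.20 (adjusted p = 0.019), which was no longer called without the intermediate libraries (0.22, adjusted p = 0.13) or without P10 replicate 1 (0.14, adjusted p = 0.091). Over the whole series the adult mean was 2.94-fold below that at E15.5 (adjusted p = 1.3e-11).

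Gria3 (chrX:41400819-41678601) encodes GluA3 and, unlike Gria1 and Gria2, was higher in adults than at E15.5. Its levels were 13, 16 and 14.8 CPM at E15.5, 9.49, 7.83 and 9.78 CPM at P0.5, 37, 33.5 and 34.3 CPM at P10 and 29.3, 25.3 and 26.4 CPM in adults. All P10 and adult libraries lay above all E15.5 and P0.5 libraries, with the lowest values at P0.5. Gria3 fell by 0.64 at P0.5 against E15.5 (adjusted p = 1.5e-05) and then rose by 1.85 at P10 against P0.5 (SE 0.0914, adjusted p = 5.1e-11), a 3.87-fold higher mean. In adults it was 0.36 below P10 (adjusted p = 0.0025), a call lost under size factors (adjusted p = 0.093) and in edgeR (adjusted p = 0.073), and 0.84 above E15.5 (adjusted p = 3.3e-07).

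Gria4 (chr9:4417893-4796234), which encodes GluA4, varied least of the 4. It was measured at 21.5, 20.3 and 20.7 CPM at E15.5, 16.9, 15.7 and 17.6 CPM at P0.5, 20.3, 19.1 and 20.4 CPM at P10 and 18.4, 16.1 and 16.8 CPM in adults. The P10 libraries overlapped with those of E15.5, and the adult ones with those of P0.5. It fell by 0.30 at P0.5 against E15.5 (adjusted p = 0.0011), rose by 0.24 at P10 against P0.5 (adjusted p = 0.0046) and fell by 0.21 in adults against P10 (adjusted p = 0.013). The rise was lost without the intermediate libraries (adjusted p = 0.072), and the fall in adults also without adult replicate 2 (adjusted p = 0.058) and under all 3 other scalings (adjusted p = 0.23 to 0.85). Between adults and E15.5 the difference was -0.27 (adjusted p = 0.0018) against a median of -0.38 over all genes, and it turned to 0.07, 0.18 and 0.16 under quantile scaling, size factors and edgeR.

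**Figure D1:**
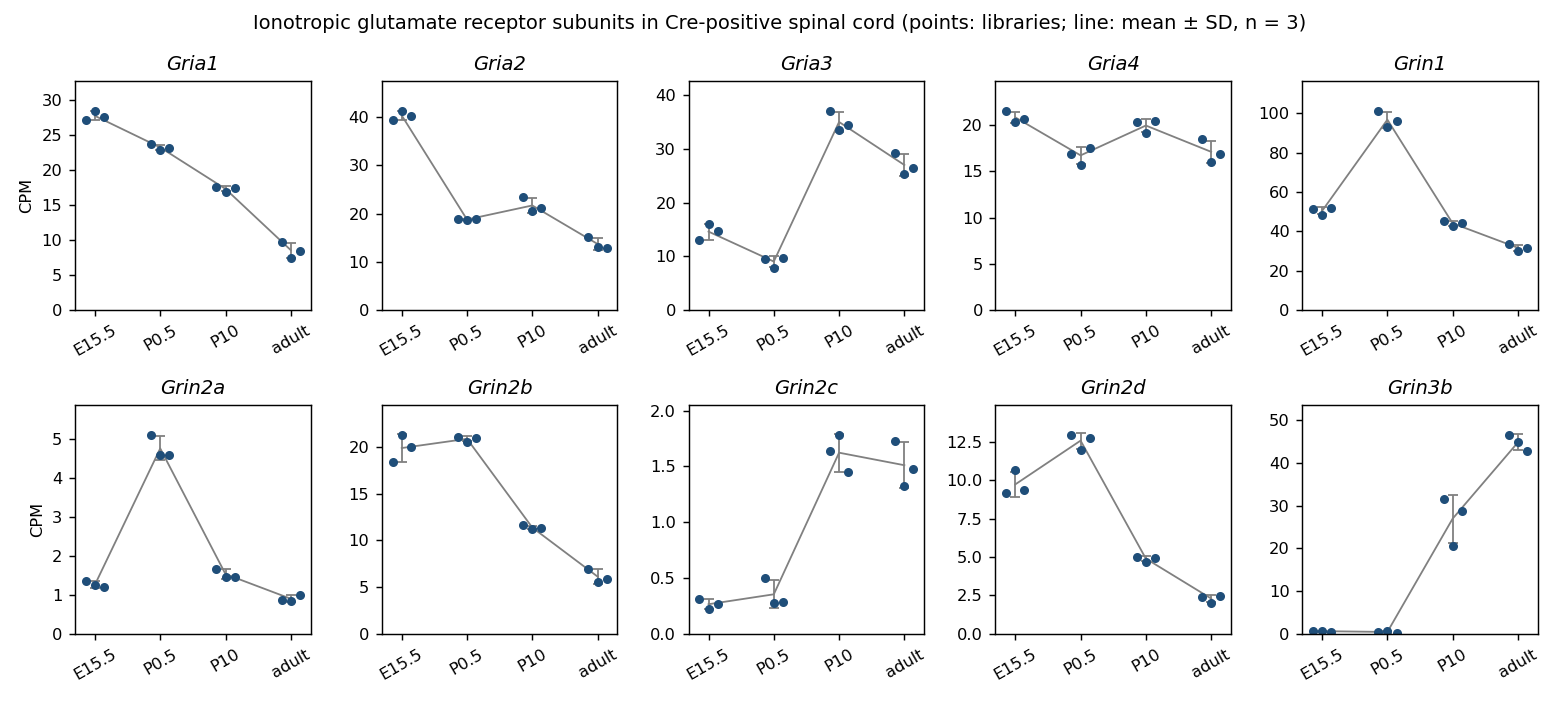
Level of the 10 subunits in spinal cord, in CPM on linear axes that each start at 0, against age (E15.5, P0.5, P10, adult); points are the 3 libraries of each age and bars the mean ± SD. Gria3, Grin2c and Grin3b are higher at P10 and in adults than before, Grin1, Grin2a and Grin2d peak at P0.5, and Gria1 and Gria2 are lowest in adults.

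Among the NMDA receptor genes, Grin1 and Grin2a had their peak at birth. Grin1 (chr2:25291177-25319187), the obligatory subunit, was measured at 51.2, 48.3 and 51.7 CPM at E15.5, 101, 93.1 and 95.9 CPM at P0.5, 45.3, 43 and 44.1 CPM at P10 and 33.4, 30.2 and 31.4 CPM in adults. The P0.5 libraries stood well above the rest and no ages overlapped. Grin1 rose by 0.93 at P0.5 against E15.5 (SE 0.0601, adjusted p = 3.2e-09), fell by 1.12 at P10 against P0.5 (adjusted p = 1.3e-10) and fell by 0.47 in adults against P10 (adjusted p = 6.1e-06). Its gene overlaps Lrrc26 by 17 bases and the antisense gene Grin1os by 7403 bases, and Grin1os had at most 1 read in any spinal cord library.

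Grin2a (chr16:9567901-9996083) encodes GluN2A, the subunit that in the rodent forebrain comes to join or replace GluN2B as synapses mature. In spinal cord it was low throughout, at 1.35, 1.24 and 1.19 CPM at E15.5, 5.1, 4.57 and 4.58 CPM at P0.5, 1.67, 1.46 and 1.46 CPM at P10 and 0.86, 0.84 and 1 CPM in adults. The P0.5 libraries were again the highest. Grin2a rose by 1.35 at P0.5 against E15.5 (SE 0.0815, adjusted p = 1.6e-09) and fell by 1.18 at P10 against P0.5 (adjusted p = 2.2e-09). Its fall in adults was 0.41 against P10 (adjusted p = 0.00036) and 0.25 against E15.5 (adjusted p = 0.0096), and the second of these turned to 0.22 under quantile scaling and was lost under size factors (adjusted p = 0.93) and in edgeR (adjusted p = 0.8).

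Grin2b (chr6:135713221-136173615) and Grin2d (chr7:45831883-45871194), whose products are the GluN2 subunits of immature circuits in rodents, fell after birth. Grin2b was measured at 18.3, 21.3 and 20 CPM at E15.5, 21.1, 20.6 and 20.9 CPM at P0.5, 11.6, 11.2 and 11.3 CPM at P10 and 6.97, 5.5 and 5.91 CPM in adults. The E15.5 and P0.5 libraries overlapped, with a difference of 0.07 (adjusted p = 0.45) that was called under quantile scaling, size factors and edgeR (0.19 to 0.22, adjusted p = 0.011 to 0.028), and each later age lay below. Grin2b fell by 0.82 at P10 against P0.5 (adjusted p = 1.3e-07) and by 0.80 in adults against P10 (adjusted p = 3.9e-07). Grin2d was measured at 9.15, 10.7 and 9.35 CPM at E15.5, 13, 12 and 12.8 CPM at P0.5, 5.03, 4.69 and 4.96 CPM at P10 and 2.43, 2.02 and 2.45 CPM in adults. It rose by 0.34 at P0.5 against E15.5 (adjusted p = 0.0013, and 0.067 without the intermediate libraries), then fell by 1.2 at P10 against P0.5 (adjusted p = 1.6e-09) and by 0.84 in adults against P10 (adjusted p = 2.6e-07). In adults, against E15.5, the means were 3.25-fold lower for Grin2b (adjusted p = 3.6e-11) and 4.23-fold lower for Grin2d (adjusted p = 1.3e-11).

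Grin2c (chr11:115249169-115267297), whose product is known in rodents mainly from cerebellar granule cells and from glia, was low at every age. It was measured at 0.31, 0.22 and 0.27 CPM at E15.5, 0.5, 0.28 and 0.28 CPM at P0.5, 1.64, 1.79 and 1.45 CPM at P10 and 1.73, 1.32 and 1.48 CPM in adults, which is 14 to 121 reads a library. All P10 and adult libraries lay above the earlier ones, while E15.5 overlapped with P0.5 and P10 with adults. Grin2c was 0.96 higher at P10 than at P0.5, a 4.58-fold higher mean. No p-value is given for that step, since Grin2c passed the filter through P10 and adult libraries alone. Its difference in adults against P10 was -0.06 (adjusted p = 0.57), and it turned to 0.25, 0.07 and 0.09 under quantile scaling, size factors and edgeR.

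Grin3b (chr10:79970397-79977190) had the widest range of the family. Of the cholinergic markers, Chat was higher at P10 and in adults (64.9 and 64.6 CPM) than at the earlier ages (at most 15.9 CPM), while Slc18a3 was lower (152 and 169.7 CPM, against 233 and 254 CPM). The 7 motor neuron and cholinergic markers summed to 2080 to 2250, 1410 to 1580, 1690 to 1800 and 1690 to 1740 CPM over the 4 ages, and their part in the levels of Grin3b was not tested. Grin3b was measured at 0.62, 0.77 and 0.5 CPM at E15.5, 0.44, 0.6 and 0.28 CPM at P0.5, 31.5, 20.6 and 28.8 CPM at P10 and 46.6, 44.9 and 42.8 CPM in adults. The 2 early ages overlapped near 0.5 CPM, P10 stood apart from them with a wide spread, and all adult libraries lay above all P10 libraries. Grin3b was 4.26 higher at P10 than at P0.5 (SE 0.128), a 60.9-fold higher mean. It passed the filter through P10 and adult libraries alone, so no p-value is given for that step. In adults against P10 it rose by 0.73 (SE 0.128, adjusted p = 0.00013), a 1.66-fold higher mean. The 3′ end of the gene shares 71 bases with Tmem259, and whether reads were counted by strand is not given in the sources used here. Tmem259 averaged 56.1, 60.4, 53 and 55.8 CPM over the 4 ages in spinal cord, and the part of the shared bases in the Grin3b reads was not tested.

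The sequences at the starts of Grin3b and Grin1 are given next. RefSeq promoter windows of 300 bases, 250 before the start and 50 after it on GRCm38.p6, were at hand for 6 of the 10 subunits, and those of Grin3b and Grin1 are printed as the gene that rose most and its obligatory partner. The Grin3b window is chr10:79970474-79970773 on the plus strand, and its start lies inside the annotated gene. The Grin1 window is chr2:25319138-25319437 on the minus strand. Capitals mark matches to the 3 motifs searched on both strands. The core promoter element known as the TATA box was spelled TATAAA. The Sp1-type element known as the GC box was spelled GGGCGG. The helix-loop-helix element known as the E-box was spelled CACGTG, which reads alike on both strands, and no match overlaps one to another motif.
Grin3b: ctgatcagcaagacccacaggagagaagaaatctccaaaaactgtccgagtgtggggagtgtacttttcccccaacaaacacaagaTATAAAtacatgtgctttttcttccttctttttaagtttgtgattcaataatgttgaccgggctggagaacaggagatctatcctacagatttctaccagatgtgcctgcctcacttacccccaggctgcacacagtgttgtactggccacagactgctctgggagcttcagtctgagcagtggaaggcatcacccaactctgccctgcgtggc
Grin1: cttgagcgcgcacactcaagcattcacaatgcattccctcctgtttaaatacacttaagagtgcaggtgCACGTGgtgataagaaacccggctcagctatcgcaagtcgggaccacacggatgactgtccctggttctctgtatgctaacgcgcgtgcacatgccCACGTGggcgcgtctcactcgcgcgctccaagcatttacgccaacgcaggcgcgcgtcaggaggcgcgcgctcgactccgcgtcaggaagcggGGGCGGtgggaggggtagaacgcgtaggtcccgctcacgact
The Grin3b window holds 3 CpG dinucleotides and 48.3% G and C, fewer CpG than most windows, since 23.3% of 32851 RefSeq windows hold fewer and the median is 7. It has 1 match to TATAAA, as do 13.6% of all windows, and none to the other 2 motifs. That match lies far upstream in the window and not next to the start. The Grin1 window holds 33 CpG and 60.7% G and C, and 91.4% of windows hold fewer CpG. It has 1 match to GGGCGG, present in 35.7% of windows, and 2 to CACGTG, present in 7.15%. The windows of Gria2, Grin2c, Gria4 and Grin2d hold 26, 22, 17 and 12 CpG, so Grin3b had the lowest count of the 6, and apart from 3 GGGCGG matches in Grin2c, of which 2 share a base, they hold none of the motifs. These are matches of letters in 1 window per gene and not measured sites.

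The second question was how the mix of subunits differed between ages. Each subunit's reads were taken as a share of its family's reads, which cancels the scaling of the library. Longer transcripts give more reads, and transcript lengths were not used, so shares are compared between ages for 1 subunit and never between subunits. They were not tested, and SDs are over 3 libraries. Gria2 made up 39 ± 0.0415% of AMPA receptor reads at E15.5, 27.7 ± 0.824% at P0.5, 23.1 ± 0.615% at P10 and 20.7 ± 0.54% in adults. Gria1 made up 26.8 ± 0.0467%, 34.3 ± 0.85%, 18.5 ± 0.525% and 12.9 ± 0.659% at these ages, with its highest share at birth. Gria3 made up 14.1 ± 1.12% and 13.3 ± 1.11% at E15.5 and P0.5 but 37.2 ± 0.45% and 40.7 ± 0.247% at P10 and in adults. Gria4 stayed between 20.1 ± 1.07% and 25.8 ± 0.315%. The summed AMPA receptor level was 104 ± 2.43, 67.8 ± 2.36, 94 ± 4.09 and 66.4 ± 5.5 CPM over the 4 ages. The adult and P0.5 sums were thus nearly equal, while the Gria3 share was 40.7% in adults against 13.3% at P0.5.

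In the NMDA receptor family the share of Grin3b reads was 0.768 ± 0.164% at E15.5, 0.327 ± 0.124% at P0.5, 29.6 ± 4.08% at P10 and 51.3 ± 1.44% in adults. The share of Grin1 was 61.4 ± 2.48%, 71.3 ± 0.312%, 48.9 ± 2.68% and 36.3 ± 0.663%, that of Grin2b 24.2 ± 1.59%, 15.4 ± 0.403%, 12.6 ± 0.837% and 7 ± 0.548%, and that of Grin2d 11.8%, 9.27%, 5.42% and 2.63%. Grin2a was at most 3.5% of the family's reads, at P0.5, and Grin2c at most 1.81%, at P10. The sum over the 6 genes was 82.2 ± 1.06, 136 ± 5.15, 90.5 ± 7.09 and 87.3 ± 4.09 CPM. Grin3a, which encodes the other GluN3 subunit and is not part of this sum, was lower at each later age, at 33.5 ± 0.34, 24.2 ± 1.32, 18.3 ± 1.3 and 14 ± 1.32 CPM.

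**Figure D2:**
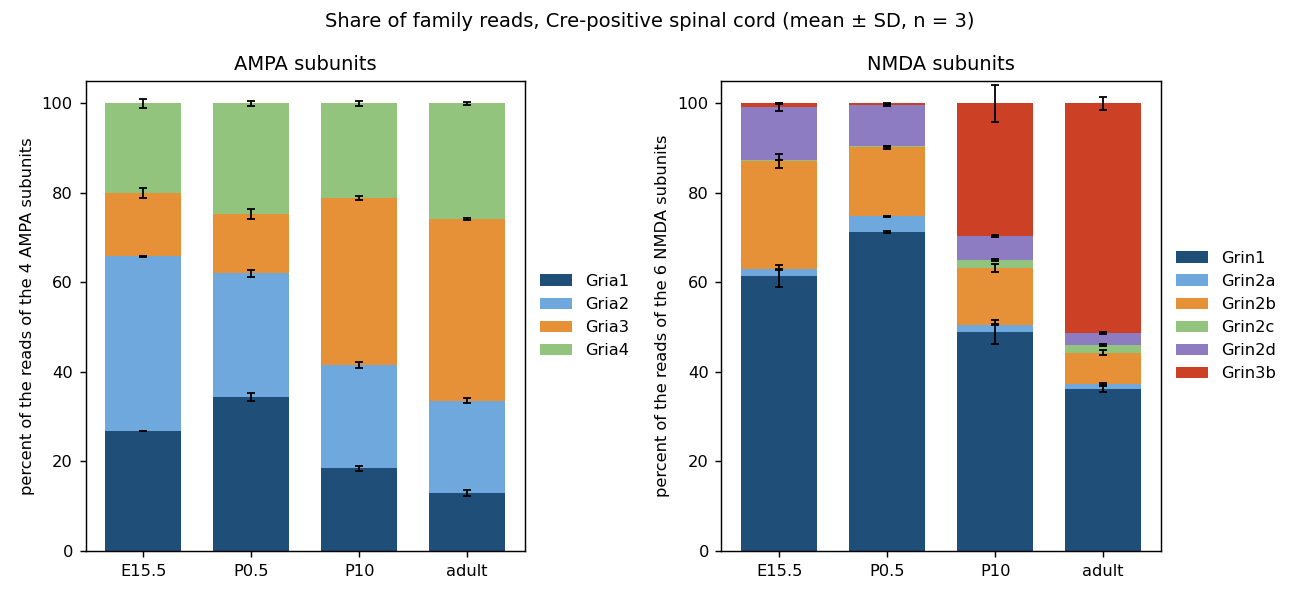
Share of each subunit in the reads of its family in spinal cord, in percent, for the 4 AMPA receptor genes and the 6 NMDA receptor genes; bars are stacked means of 3 libraries at each age and error bars ± SD. The Gria3 share is 37.2% and 40.7% at P10 and in adults, and the Grin3b share 29.6% and 51.3%, against at most 14.1% and 0.768% at the 2 earlier ages; lengths differ between transcripts, so only changes with age can be read.

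Ratios between partners describe the same reads without the rest of the family, again with no test, so they are no separate evidence. The log2 ratio of Gria3 to Gria2 reads was -1.47 ± 0.118 at E15.5, -1.06 ± 0.166 at P0.5, 0.69 ± 0.0229 at P10 and 0.98 ± 0.0398 in adults (SD, n = 3), a change of 2.45 from first to last. The ratio of Gria1 to Gria2 was 0.31 at P0.5 and between -0.32 and -0.68 at the other 3 ages, so it was highest at birth and ended near its start. The ratio of Gria4 to Gria2 was -0.95 at E15.5 and 0.32 in adults. All 3 ratios to Gria2 were thus higher at P0.5 than at E15.5, the step in which Gria2 itself fell most.
Among the GluN2 genes, the log2 ratio of Grin2a to Grin2b was -3.98, -2.14, -2.90 and -2.77 over the 4 ages, with its highest value at P0.5 and not in adults. That of Grin2c to Grin2b was -6.24, -5.94, -2.81 and -2.02, a change of 4.22. That of Grin2d to Grin2b stayed between -0.73 and -1.41, a narrower range than the other ratios among GluN2 genes. Against the obligatory subunit, Grin2b was at -1.34, -2.21, -1.96 and -2.38, and Grin3b at -6.34, -7.84, -0.73 and 0.50, a change of 6.84 between E15.5 and adults.

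**Figure D3:**
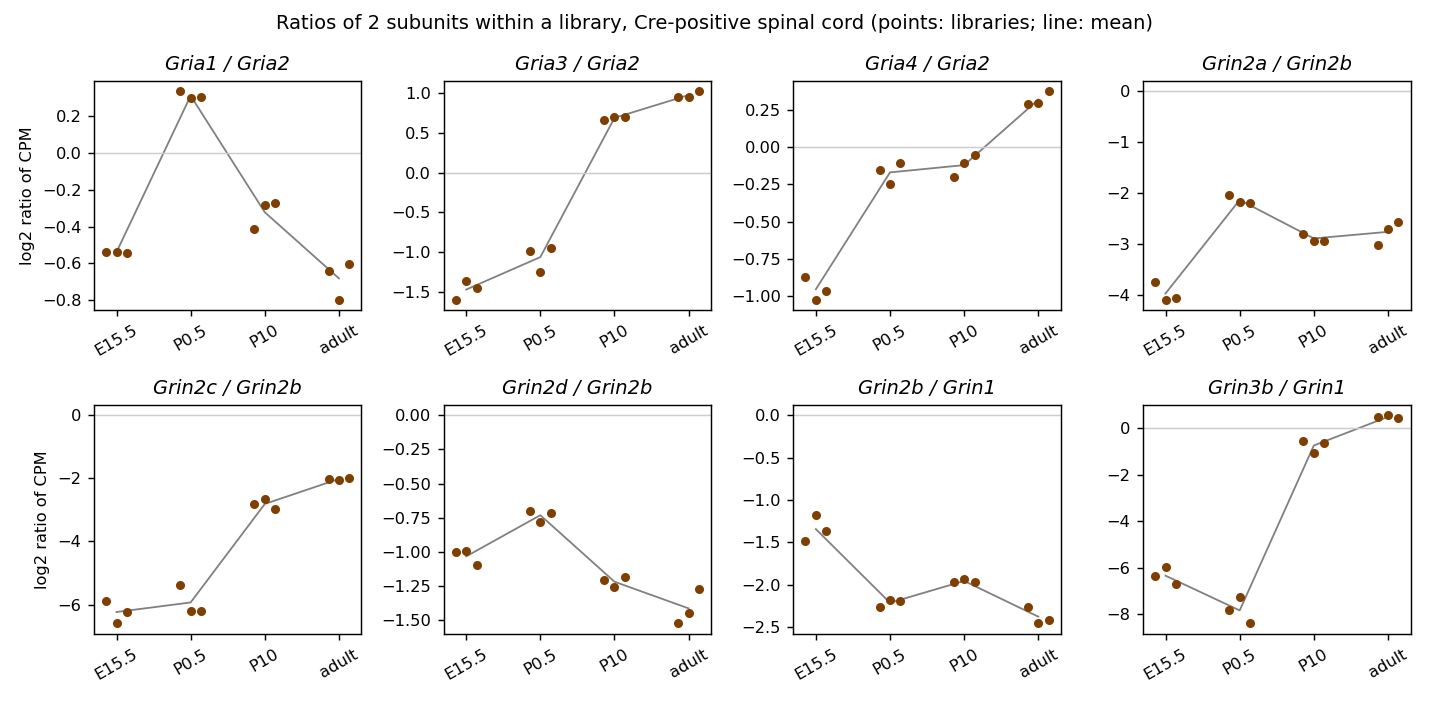
Log2 ratio of reads for 8 pairs of subunits in spinal cord, against age; points are the 3 libraries of each age and lines join the means. Grin3b over Grin1 (-7.84 at its lowest, at P0.5, and 0.50 in adults) and Grin2c over Grin2b have the widest ranges, while Grin2d over Grin2b stays between -0.73 and -1.41.

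The profiles were then set against each other and against all other genes, as a description over 4 ages with no test. The measure was the root mean square difference between age means of log2(CPM + 1), each gene centred on its own mean, so 0 is an identical profile. Within the family the nearest pairs were Gria1 and Grin2b (0.154), Grin2b and Grin2d (0.164) and Grin1 and Grin2a (0.171). Grin3b was far from all others, with Gria3 nearest at 1.65 and the rest at 1.81 to 3.05. Among genes that averaged 10 CPM or more, those nearest to Grin3b were Lbhd2 (0.242), which averaged 7.3, 6.49, 116 and 155 CPM over the 4 ages, and Kcnj14 (0.25), an inward rectifier potassium channel, at 3.57, 5.05, 74.7 and 133 CPM. Those nearest to Gria3 were Kcnc1 (0.087), a voltage-gated potassium channel, at 20.1, 14.7, 49.5 and 41.9 CPM, and Zdhhc20 (0.109). For Grin2d they were Lrrtm1 (0.036), a postsynaptic adhesion protein, and Plppr4 (0.043). For the other 7 subunits the nearest genes were Galnt11 and Vash1 (Gria1), Timm21 and Hmgn1 (Gria2), Rpl27a and Nol7 (Gria4), Slc27a1 and Uck1 (Grin1), Rpl13 and Ssbp4 (Grin2a), Jmjd7 and Coro1c (Grin2b) and Isca1 and Paqr8 (Grin2c), all within 0.058. With only 4 ages, flat and simple profiles find near matches among so many genes.

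The third comparison set spinal cord against Cre-positive diaphragm of the same age, the cell bodies' tissue against the tissue that holds the motor axon endings. All subunits but Grin3b at E15.5 were higher in spinal cord. The test found 9 of 10 higher at E15.5 and 10 of 10 at each of the 3 later ages. Over the 14831 genes tested in this fit, 73.6%, 75.3%, 73% and 74.8% were called at the 4 ages, and 52.1%, 56.9%, 53.1% and 55.3% were called higher in spinal cord and 21.5%, 18.4%, 19.9% and 19.5% lower. Higher genes were 70.8% to 75.6% of the calls in CPM and 48.8% to 58.7% under size factors, quantile scaling and edgeR. The median difference of the 10 subunits was 3.48, 3.93, 3.88 and 3.45, where that of all genes tested was 0.58, 0.80, 0.63 and 0.72. Of the 10, 8 passed the filter only through spinal cord libraries, since Gria3 and Grin3b alone reached 1 CPM in more than 1 diaphragm library. Those 8 had to be higher in spinal cord, so these counts and medians are a description.

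Grin1 had 2118 to 7078 reads in each spinal cord library and 34 reads in all 24 diaphragm libraries together, 16 of which had none. Its difference in adults was 4.99. Gria2 had 88 diaphragm reads in all, with none in 14 libraries, and its difference at E15.5 was 5.25. Both entered the fit through spinal cord alone, so no p-value is given for them. Grin2a had no read in any of the 24 diaphragm libraries. Taking 3 reads a library as the floor, its spinal cord mean was at least 38.4-fold higher than Cre-positive diaphragm at E15.5 and at least 30.2-fold higher in adults. Gria1, Gria4, Grin2b, Grin2c and Grin2d had 249, 240, 46, 5 and 165 reads over the 24 diaphragm libraries, and none in 14, 16, 14, 21 and 11 of them. Such counts, at most a few reads in most libraries, do not allow these subunits to be compared between diaphragm groups.

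Gria3 and Grin3b were the subunits with most reads in diaphragm, 2489 and 1916 in all, and were absent from 1 and 5 of the 24 libraries. Gria3 was 2.87, 2.48, 4.39 and 4.41 higher in spinal cord at the 4 ages, with adjusted p-values between 4.2e-13 and 4.3e-09. Grin3b averaged 0.631 ± 0.135 CPM in spinal cord and 0.522 ± 0.284 CPM in Cre-positive diaphragm at E15.5, a difference of 0.11 (SE 0.194, adjusted p = 0.61), and it turned to -0.12, -0.10 and -0.46 under quantile scaling, size factors and edgeR. At P0.5 the difference was 0.47 (adjusted p = 0.036), which was lost without the intermediate libraries (adjusted p = 0.16) and was at -0.0036 under quantile scaling. At P10 spinal cord was 20.2-fold higher (3.56, adjusted p = 1.4e-12). In adults it averaged 44.8 ± 1.88 CPM in spinal cord and 2.72 ± 1.19 CPM in Cre-positive diaphragm (3.67, adjusted p = 7.6e-13).

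**Figure D4:**
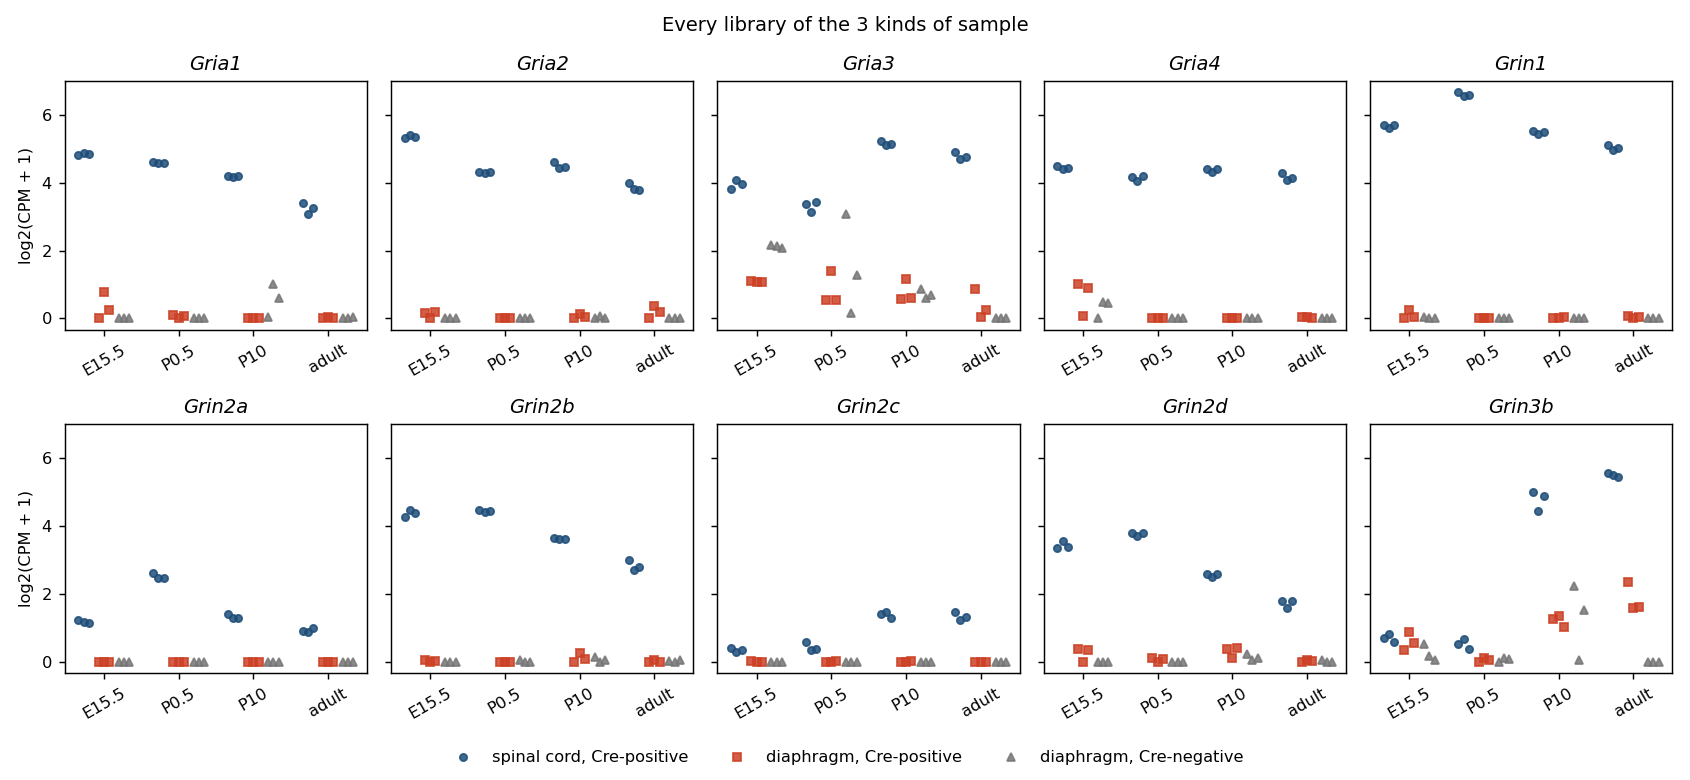
Level of each subunit in all 36 libraries as log2(CPM + 1), against the 4 ages in order. Within each age spinal cord is left, Cre-positive diaphragm in the middle and Cre-negative diaphragm right, and points are libraries. Spinal cord lies above both diaphragm groups for 9 subunits at all ages, and for Grin3b at P10 and in adults; in diaphragm only Gria3 and Grin3b reach 1 CPM in more than 1 library.

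The last comparison asked which subunits Cre-positive diaphragm held beyond the background of the purification. Only Gria3 and Grin3b passed the filter of 1 CPM in 3 of the 24 diaphragm libraries, and the other 8 were not tested. Grin3b in adults was the only call: its reads numbered 386, 215 and 210 in Cre-positive libraries, against 0, 0 and 0 in Cre-negative libraries. It averaged 2.72 ± 1.19 CPM in Cre-positive libraries (SD, n = 3), at least 80.8-fold higher than the floor of 3 reads a library in Cre-negative ones, and the log2(CPM + 1) difference was 1.85 (SE 0.364, adjusted p = 0.0018). Of the 13853 genes tested, 12% were called in adults, 3.06% upward and 8.92% downward, so that 25.6% of the calls were upward in CPM, against 54.6%, 49.6% and 59.3% under size factors, quantile scaling and edgeR. Without the intermediate libraries the difference was 1.97 with an adjusted p of 0.3, and 14 genes in all were called in place of 1659. Tmem259, which overlaps the end of Grin3b, averaged 88.8 ± 12 CPM in Cre-positive and 81 ± 10.9 CPM in Cre-negative adult diaphragm. The part of the shared bases in the Grin3b reads was not tested here either. In the same adult Cre-positive libraries Chat had at most 2 reads, and the 6 pan-neuronal markers summed to 4.53 to 6.83 CPM, against 6.86 to 8.11 CPM in Cre-negative libraries. The 7 motor neuron and cholinergic markers summed to 1.27 to 2.37 CPM in Cre-positive and 1.8 to 8.76 CPM in Cre-negative adult libraries.

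At the earlier ages Grin3b was found in both genotypes. At E15.5, Cre-positive libraries held 24, 79 and 42 reads of it, against 36, 10 and 3 in Cre-negative ones. At P0.5, Cre-positive libraries held 0, 7 and 4, against 0, 6 and 4 in Cre-negative ones. At P10, Cre-positive libraries held 138, 147 and 102, against 328, 4 and 171 in Cre-negative ones. The groups overlapped at each of these ages, and the differences of 0.34, 0.00 and -0.06 had adjusted p-values of 0.61, 1 and 1, where 11%, 27.7% and 1.45% of genes were called. Upward calls were 4.88%, 12.1% and 0.419% of genes and downward calls 6.11%, 15.7% and 1.03%, with 44.4%, 43.5% and 28.9% of the calls upward in CPM. Of the calls under other scalings, 60.6%, 66.5% and 47.3% were upward under size factors, 50.4%, 51.4% and 49% under quantile scaling and 66.4%, 74.5% and 71.4% in edgeR. At P10 the Cre-negative libraries alone spanned 4 to 328 reads. The change of the Cre difference between adults and P10 was 1.91 (adjusted p = 0.036), with 4.21% of genes called, and this change was 1 of 6 tested for Gria3 and Grin3b and the only one to pass. The call was lost in 9 of 12 fits that left out 1 library and without the intermediate libraries (1.81, adjusted p = 1).

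With all libraries Gria3 passed limma's test between the genotypes at no age. Its reads were 102, 107 and 101 in Cre-positive against 287, 272 and 259 in Cre-negative diaphragm at E15.5. The groups did not overlap there, with means of 1.13 ± 0.0141 CPM in Cre-positive and 3.38 ± 0.133 CPM in Cre-negative libraries, but the log2 difference of -1.04 had an SE of 0.46 and an adjusted p of 0.15, since the fit shares 1 variance over all ages. At P0.5 its reads were 46, 143 and 46 in Cre-positive against 512, 9 and 111 in Cre-negative libraries (-0.67, adjusted p = 0.29), and 1 Cre-negative library held most of them. At P10 the reads were 47, 117 and 51 in Cre-positive against 71, 48 and 57 in Cre-negative libraries (0.06, adjusted p = 1). In adults they were 79, 4 and 18 in Cre-positive against 0, 1 and 1 in Cre-negative libraries (0.38, adjusted p = 0.7). edgeR on recovered reads called this difference (adjusted p = 0.013), at 5.52 as a log2 ratio of levels. Near 0 CPM such a ratio is not comparable with a difference of log2(CPM + 1). With all libraries the smallest adjusted p of Gria3 in limma was 0.15, while without Cre-negative replicate 2 it was called at P0.5 (-1.35, adjusted p = 0.017). A p above the threshold does not show that the genotypes were alike.

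Some untested subunits, chosen after their values were seen, had reads in 1 diaphragm group and few or none in the other. Gria1 at P10 had no read in Cre-positive libraries, against 2, 96 and 48 reads in Cre-negative ones. At E15.5 it had 1, 68 and 17 reads in Cre-positive libraries, against none in Cre-negative ones. Grin2d at E15.5 had 27, 0 and 25 reads in Cre-positive libraries, against none in Cre-negative ones. In each of these sets 1 library lacked nearly all the reads that the other 2 held. Of those 2, replicate 3 was the intermediate library, nearly a mix of its fellows, so the 2 are not independent. The motor neuron and cholinergic markers of Cre-positive diaphragm themselves summed to at most 66 CPM, with at most 14 Chat reads in a library, while the skeletal muscle markers summed to 13000 to 58400 CPM. Over the 4 ages in order, the motor neuron and cholinergic sums were 47.2 to 66, 0 to 7.54, 0.803 to 5.02 and 1.27 to 2.37 CPM in Cre-positive diaphragm. In Cre-negative diaphragm they were 15.8 to 70.6, 1.92 to 6.12, 0.431 to 0.715 and 1.8 to 8.76 CPM. The ranges of the genotypes overlapped at all ages but P10.

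Subunits work with partners, and 5 lists of these were described in the comparison of adult with E15.5 spinal cord, where 84.4% of genes were called and the median over all genes was -0.38. The lists were chosen with earlier results of these data known. Of 8 other ionotropic glutamate receptor subunits 1 rose and 7 fell, with a median of -1.09. The kainate receptor genes Grik1 (0.843 ± 0.154 CPM in adults, 9.13 ± 0.448 CPM at E15.5), Grik3 and Grik5 fell by 2.46, 2.08 and 1.38, with adjusted p-values of at most 9.9e-09. Grik4, another kainate receptor gene, was 0.26 higher (adjusted p = 0.046) with overlapping libraries. The call was lost with no filter and without the intermediate libraries. It was also lost on leaving out E15.5 replicate 2, adult replicate 1 or adult replicate 3.

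Of 16 auxiliary subunits of AMPA and kainate receptors, which set the gating and surface number of the receptors, 1 rose, 11 fell, 3 did not pass and 1 was not tested, with a median of -1.83. Cacng4, a transmembrane AMPA receptor regulatory protein, averaged 0.597 ± 0.258 CPM in adults and 25.2 ± 3.8 CPM at E15.5 (-4.04, adjusted p = 1.3e-13). The cornichon genes Cnih3, at 1.14 ± 0.328 CPM in adults and 25.7 ± 1.55 CPM at E15.5, and Cnih2, at 16.9 ± 1.82 CPM in adults and 184 ± 22.4 CPM at E15.5, fell by 3.65 and 3.37. The member that rose was Syndig1 (51.2 ± 1.93 CPM in adults, 32.2 ± 2.86 CPM at E15.5, 0.66, adjusted p = 4.5e-06). Under size factors, quantile scaling and edgeR the list had 4 members that rose and 11 that fell. By step, 7 rose and 2 fell at P0.5 against E15.5, where 27.9% of all genes were called upward and 44.4% downward. At P10 against P0.5, 2 rose and 12 fell, with 35.2% and 43.5% of all genes, and in adults against P10, 1 rose and 13 fell, with 23.6% and 44.3%.

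Of 26 scaffold and trafficking genes 1 rose, 21 fell and 4 did not pass, with a median of -0.59. Nsf, the ATPase that binds GluA2 and takes apart SNARE complexes, rose by 1.69 (361 ± 17.3 CPM in adults, 111 ± 4.06 CPM at E15.5, adjusted p = 6.2e-11). The neuronal pentraxin Nptx2, the GluA2-binding scaffold Grip1 and Homer2 fell by 3.30, 1.71 and 1.71, with adjusted p-values of at most 3e-11. The split of this list turned on the scaling, at 7 rose and 14 fell under size factors and 6 and 14 under quantile scaling and in edgeR. Of 8 metabotropic receptors, which signal through G proteins, 6 fell, with a median of -1.04 over the list, and Grm5, Grm3 and Grm7 fell by 2.14, 1.30 and 1.30. This count too turned on the scaling, at 4 that fell under quantile scaling and 5 under size factors and in edgeR.

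Of the 3 RNA editing enzymes Adarb1 and Adar rose and Adarb2 fell. Adarb1 encodes ADAR2, which edits the Gria2 transcript at the site that sets calcium permeability. It averaged 54.4 ± 8.22 CPM in adults and 5.88 ± 0.323 CPM at E15.5 (3.0, adjusted p = 3.7e-13), with 6.58 and 34.6 CPM at P0.5 and P10. Adar rose by 0.30 (adjusted p = 0.0037, and 0.052 without the intermediate libraries) and Adarb2, a brain-specific relative without known editing activity, fell by 0.77 (adjusted p = 4.7e-07). The table gives levels only and no editing.

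**Figure D5:**
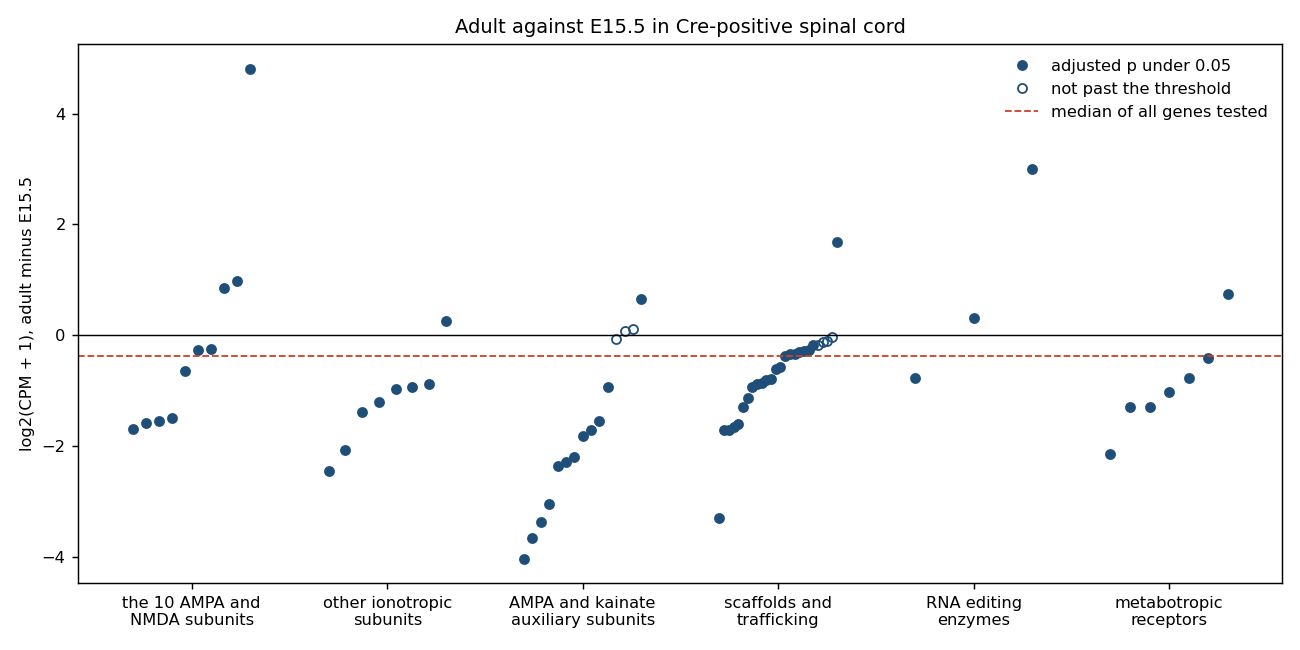
Log2(CPM + 1) difference of adult minus E15.5 spinal cord for the 10 subunits and the 5 lists; each point is a gene, filled where the adjusted p was under 0.05, and the dashed line is the median of all genes tested (-0.38). Grin3b (4.81) and Adarb1 (3.0) lie highest, and Cacng4, Cnih3 and Cnih2 lie lowest.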

How the data were processed

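The table deposited by the authors holds CPM, in which every column sums to 1000000. The submitters' processing notes name the mm10 genome, Bowtie2 2.2.5 and RSEM 1.2.12 without their roles, and how reads were counted by strand is not given in the sources used here. One further column of per-sample values matched no sample in the labels and was left out (1 column). The 10 subunits were matched by symbol. The subunits, gene lists and tests were chosen with earlier results of these data known.

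Tests were limma 3.58.1 (trend, robust, R 4.3.3) on log2(CPM + 1), with genes of at least 1 CPM in at least 3 libraries of the fit, Benjamini-Hochberg adjustment over all genes tested and a threshold of 0.05. One fit held the 12 spinal cord libraries, one added the 12 Cre-positive diaphragm libraries, and one held the 24 diaphragm libraries. Dividing by the step of 1 read gave whole reads for 100% of values, within 0.1 read, in 35 of 36 columns. In P0.5 Cre-positive diaphragm replicate 3 the depth is an estimate. edgeR 4.0.16 on these reads was an alternative and called 9503, 10568, 9201 and 11005 genes in the 4 spinal cord comparisons. Its differences are log2 ratios of levels, which near 0 CPM are larger than differences of log2(CPM + 1). Other alternatives were a pseudocount of 0.1, no filter, quantile scaling, size factors (RLE), a replicate block, leaving out intermediate libraries and leaving out each library in turn. The floor for a gene at 0 was 3 reads, at most 0.0471 CPM, and covers counting error only.

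Composition per transcript length was planned and not run, because no lengths were at hand, so shares are of reads. Named genes are the 10 subunits, from each list up to 3 called members per direction with the largest difference in adults against E15.5 and at least 1 CPM in the higher group, for each subunit the 2 genes with the nearest age profile, and Chat, Slc18a3, Slc17a6, Rbfox3 and Acta1 as checks of the labels, at 64.6, 169.7, 12.5, 276 and 1.76 CPM in adult spinal cord. Tests were checked on simulated data. Same-numbered libraries did not deviate together (correlations between -0.0959 and 0.0759), so replicate numbers were not used as pairs. With so few libraries a group, this cannot exclude that same-numbered libraries came from the same mice or batch. A gene that the naming rule covers is not reported here.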

Additional observations from a re-analysis of the deposited data

Results flagged for a closer look

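The Cre difference of Grin3b, Cre-positive minus Cre-negative diaphragm, changed by 1.91 between P10 and adults on the log2(CPM + 1) scale (limma, adjusted p = 0.036). It was 1.85 in adults, where Cre-positive libraries held 386, 215 and 210 reads and Cre-negative libraries none, and -0.06 at P10, where Cre-positive libraries held 138, 147 and 102 reads and Cre-negative libraries 328, 4 and 171. What drew attention to it is that the effect differs between ages by a test of the difference itself. The call was kept in 3 of 12 fits that left out 1 library.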

How the results depend on the processing

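Over the 40 differences of the subunits between spinal cord ages, 253 of 280 values from other settings and 238 of 240 from leaving out 1 library kept direction and side of the threshold. For the 40 tissue differences these counts were 271 of 280 and 235 of 240, for the 8 Cre differences 47 of 56 and 38 of 48, and for the 19 pathway genes 130 of 133 and 111 of 114. In the tissue fit 8 subunits passed the filter through spinal cord alone and had to be higher there, so the tissue counts are no evidence of stability. The age counts include Grin2c and Grin3b, which passed the filter through P10 and adult libraries alone. Shares and ratios do not respond to scaling, and leaving out a library keeps their mean within the range of the libraries by construction, so they were not put to a test here. In diaphragm 8 subunits had too few reads to test, although these libraries were sequenced to 68.2 to 107 M reads. In these libraries 15.4 to 46.2% of all genes had no read, against 8.3 to 12.9% in spinal cord. The cause of each change below was not tested.

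In spinal cord, under quantile scaling, size factors and edgeR, the adult minus P10 difference of Grin2c was 0.25 (adjusted p = 0.022), 0.065 and 0.0875, and the adult minus E15.5 difference of Gria4 was 0.0713, 0.18 (adjusted p = 0.0063) and 0.16 (adjusted p = 0.014). That of Grin2a was 0.22 under quantile scaling (adjusted p = 0.02). With quantile scaling 2 subunits were higher in adults than at P10, where 8978 genes were called, 4794 of them higher. Without the intermediate libraries 3 subunits were higher at P10 than at P0.5, where 8666 genes were called, 3885 of them higher. Between spinal cord and Cre-positive diaphragm, Grin3b was at -0.12, -0.10 and -0.46 at E15.5 under quantile scaling, size factors and edgeR and at -0.0095 without Cre-positive replicate 1, and at -0.0036 at P0.5 under quantile scaling. Without 1 library each, 4 or 5 subunits were higher at P10 than at P0.5, 7 or 8 were lower in adults than at P10, and 9 or 10 were higher in spinal cord at P0.5. With all libraries, 35.2%, 44.3% and 56.9% of all genes tested were called in these directions.

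Between Cre-positive and Cre-negative diaphragm, Grin3b was at -0.11 at E15.5 under quantile scaling. At P0.5 it was at 0.0072, 0.18 and 0.0325 under size factors, edgeR and without the intermediate libraries, and at 0.0202, 0.0042 and 0.0257 without Cre-negative replicate 2, Cre-negative replicate 3 and Cre-positive replicate 1. At P10 it was at 0.47, 0.0672 and 0.16 with a pseudocount of 0.1, size factors and no intermediate libraries, and at 0.42, 0.0669 and 0.0336 without Cre-negative replicate 1, Cre-negative replicate 3 and Cre-positive replicate 3. Leaving out 1 library gave ranges for Grin3b of -0.0324 to 0.0257 at P0.5, -0.67 to 0.42 at P10 and 1.60 to 1.98 in adults. Gria3 was at 0.12 at P0.5 without Cre-negative replicate 1, in a range of -1.35 to 0.12, and its lowest value, without Cre-negative replicate 2, was called (adjusted p = 0.017). At P10 Gria3 was at -5e-04 and -0.13 without Cre-negative and Cre-positive replicate 2, in a range of -0.13 to 0.17. In adults edgeR called 2 subunits higher, where it called 1706 genes in all, 1011 of them higher. Without the intermediate libraries limma called 0 subunits (Grin3b, unadjusted p = 0.0064) and 14 genes in all, 6 of them higher.

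The change of the Cre difference of Grin3b ranged from 1.43 to 2.52 without 1 library. Alternatives for it were chosen after seeing the data.

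Genes called between genotypes at E15.5, 1522 in limma, were 2434 with no filter, 706 in edgeR, 7 without the intermediate libraries and 693 to 1538 without 1 library. At P0.5, 3844 became 108 without the intermediate libraries. At P10, 201 became 365 with no filter, 49 in edgeR, 44 to 155 without 1 library and 0 in limma without the intermediate libraries, where 246 had an unadjusted p under 0.05. In adults, 1659 became 14 without the intermediate libraries and 844 to 1639 without 1 library.

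With the replicate block none of 108 gene values and 36 counts changed its call, and the change of the Cre difference of Grin3b kept its call (adjusted p = 0.042 with the replicate block). Composition per transcript length was not run, since lengths were not used here.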

Other observations

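Grik5, a kainate receptor gene, was the only one of the other ionotropic glutamate receptor subunits called between diaphragm genotypes in adults, chosen after its values were seen. It averaged 4.28 ± 1.79 CPM in Cre-positive and 1.39 ± 0.332 CPM in Cre-negative adult diaphragm (1.10, limma adjusted p = 0.045). Of the 13853 genes tested in adults, 12% were called, 3.06% upward. Without the intermediate libraries 14 genes were called in place of 1659. At E15.5 Grik5 averaged 6.85 ± 2.74 CPM in Cre-positive and 15 ± 2.97 CPM in Cre-negative diaphragm. These means were 4.41 ± 1.53 and 8.27 ± 1.05 CPM at P0.5, and 2.045 ± 1.12 and 2.58 ± 0.149 CPM at P10.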
